A study of Arabidopsis thaliana with 109 samples.

Results

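The 10 genes described here are Arabidopsis thaliana genes of branched-chain amino acid breakdown and of the dark and sugar-starvation response, out of 33602 gene models in each of the 3 deposited expression tables. They were chosen by gene identifier: MCCA (AT1G03090), MCCB (AT4G34030), IVD (AT3G45300), BCAT2 (AT1G10070), DIN4 (AT3G13450), DIN2 (AT3G60140), DIN10 (AT5G20250), SEN1 (AT4G35770), ASN1 (AT3G47340) and AKINBETA1 (AT5G21170). The choice was made with results of these libraries known, and which contrast led to it is not recorded. Every count and fold change of the 10 is therefore a description: a call sets the size of a change against the spread between libraries, no p-value of the 10 is printed, and nothing is supported with it. Test results with p-values are given only for genes outside the 10.

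Leucine, isoleucine and valine are broken down in plant mitochondria when sugar is short, and the carbon and electrons they release can feed respiration. A branched-chain aminotransferase removes the amino group. BCAT2 encodes an enzyme of this kind, and these RNA data do not show where in the cell it acts. The branched-chain keto acid dehydrogenase complex, of which DIN4 encodes an E1 beta subunit, makes the acyl-CoA. IVD (isovaleryl-CoA dehydrogenase) and the 3-methylcrotonyl-CoA carboxylase subunits MCCA and MCCB act further down the leucine branch. DIN genes take their name from dark induction: DIN2 encodes a beta-glucosidase, DIN10 a raffinose synthase-like protein, and SEN1, also called DIN1, a senescence-associated protein. ASN1, also DIN6, is an asparagine synthetase that makes the nitrogen-rich amide asparagine in the dark, and AKINBETA1 is a beta subunit of SnRK1, the kinase complex that responds to energy shortage.

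The study followed seedlings moved from white light to light with a low ratio of red to far-red (low R:FR), which imitates the shade of neighbouring plants. Of its 109 samples, 29 are total RNA libraries of light-grown whole seedlings on Linsmaier and Skoog medium, and the others include chromatin samples. The first table holds Col-0 wild type, with 3 libraries each from white light, a 2 h low R:FR exposure, and that exposure plus 2 h back in white light (recovery). The second holds the triple mutant pif457, which lacks the transcription factors PIF4, PIF5 and PIF7, carrying PIF7 fused to MYC tags behind PIF7's own promoter (the PIF7-MYC line), with 3 libraries each from white light and exposures of 5, 10 and 30 min. All groups of that table carry the mutations and the transgene, in 1 transgenic line. The third holds Col-0 and, without the transgene, pif457, with 2 libraries each from white light and a 30 min exposure. The labels give no hour of harvest for these libraries, so minutes of low R:FR and the hour of the day cannot be told apart, and they do not say that replicates are separate cultures, so p-values measure the spread between these libraries, which may be technical.

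The deposited values are TPM, a transcript abundance scaled for transcript length and to the same sum in every library, and keep no trace of read depth, so the depth behind each value is unknown. The shade marker genes check the labels: all 4 (PIL1, ATHB2, HFR1, IAA29) rose after 2 h and after 30 min in the PIF7-MYC line, and ATHB2, for example, went from 5.04 ± 0.549 TPM (mean ± SD, n = 3) in white light to 293 ± 8.83 at 30 min there. In wild type at 30 min 3 of the 4 rose and IAA29, at 4.91 ± 2.76 and then 8.79 ± 2.98 TPM (n = 2), did not pass the test, and in pif457 none of the 4 did. In pif457, PIF7 stood at 1.04 ± 0.283 TPM in white light (n = 2) against 26.7 ± 1.83 in the wild type, and PIF5 at 3.37 ± 0.933 against 37.9 ± 6.73. PIF4 stood at 11.6 ± 0.431 against 39.8 ± 10.3 TPM. The PIF7-MYC line had PIF7 at 126 ± 8.71 TPM in white light and 74.3 ± 4.32 TPM at 30 min, in a table that was normalized separately. Nuclear rRNA and organellar genes took 23.1% of TPM in replicate 1 of pif457 at 30 min and 1.24% to 12.8% in the other libraries. Fewer cells that express a gene and less RNA per cell cannot be told apart in whole seedlings.

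In white light the 10 genes covered a wide range of levels. In the PIF7-MYC line DIN10 was highest at 201 TPM (179.6 to 221 over 3 libraries), followed by SEN1 at 138 TPM (135 to 145), and the ranges of these genes did not overlap. ASN1 (39.1 to 53.5 TPM) and AKINBETA1 (35.0 to 46.0 TPM) overlapped with each other, as did DIN4 (27.3 to 34.1 TPM) and MCCB (22.4 to 28.0 TPM). MCCA, IVD, BCAT2 and DIN2 came last, at means of 19.6, 17.4, 13.5 and 10.0 TPM, with no overlap between neighbours. DIN10 was also highest in wild type, at means of 181 TPM in the first table and 212 TPM in the third, and SEN1 came next in each, although the ranges of these genes overlapped in the first.

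Within 5 min of low R:FR, 9 of the 10 genes stood at higher levels in all 3 libraries of the PIF7-MYC line than in any of its white light libraries, and 14.1% of all genes did the same. At 10 min 6 of the 10 overlapped white light. BCAT2 and SEN1 lay below it, as did 8.12% of all genes. MCCB and DIN4 lay above it, 2 of the 10, a share near the 19.4% of all genes that did. At 30 min all 10 were above every white light library, as were 15.6% of all genes. Their summed level was 512 to 581 TPM in white light, 1164 to 1401 TPM at 5 min, 331 to 586 TPM at 10 min and 789 to 956 TPM at 30 min. ASN1 measured 40.1, 53.5 and 39.1 TPM in white light and 181, 139 and 196 TPM at 5 min. It then measured 28.5, 49.5 and 11.4 TPM at 10 min and 112, 111 and 85.2 TPM at 30 min. The 5 min and 30 min libraries of ASN1 were thus each above all white light libraries, and the 10 min libraries reached from below white light into its range.

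SEN1 followed the same course with a deeper trough. It measured 145, 135 and 135 TPM in white light, 431, 323 and 373 TPM at 5 min, 55.4, 96.5 and 29.8 TPM at 10 min and 241, 168 and 218 TPM at 30 min. No group of SEN1 overlapped another: 10 min lay below white light, and 30 min between white light and 5 min. BCAT2, a branched-chain aminotransferase gene, measured 13.5, 14.1 and 13.1 TPM in white light and 41.5, 28.8 and 33.8 TPM at 5 min. At 10 min BCAT2 measured 9.45, 12.5 and 5.04 TPM, below all white light libraries, and at 30 min 21.2, 27.1 and 19.8 TPM, above them.

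**Figure D1:**
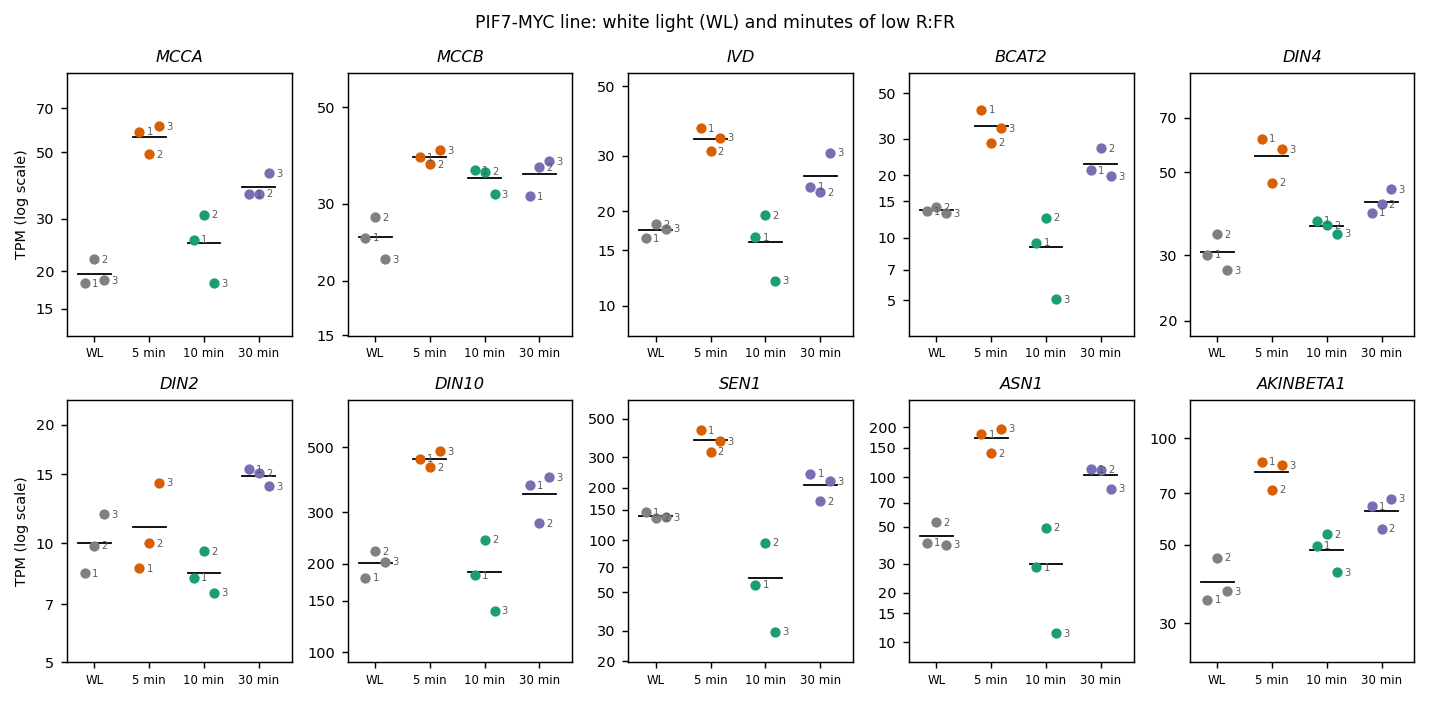
TPM of each of the 10 genes (log scale) in every library of the PIF7-MYC line, by minutes of low R:FR; points are libraries with their replicate number, lines the group means, n = 3. Apart from DIN2, every gene has its 5 min points above its white light points, and in all 10 panels replicate 3 is the lowest of the 10 min points.

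MCCA and MCCB, the subunits of 1 enzyme, followed different courses. MCCA, the biotin-carrying subunit, measured 18.3, 22.0 and 18.6 TPM in white light and 58.6, 49.2 and 61.2 TPM at 5 min. It came to 25.5, 30.9 and 18.3 TPM at 10 min, where it overlapped white light, and to 36.2, 36.3 and 42.6 TPM at 30 min. MCCB, the partner subunit, measured 25.1, 28.0 and 22.4 TPM in white light, 38.4, 37.0 and 39.9 TPM at 5 min, 35.8, 35.6 and 31.6 TPM at 10 min and 31.2, 36.5 and 37.6 TPM at 30 min. All low R:FR libraries of MCCB were thus above all of its white light libraries. IVD went from a mean of 17.4 TPM to 34.0 TPM at 5 min, 16.0 TPM at 10 min and 25.9 TPM at 30 min, and DIN4 from 30.5 to 55.3, 35.8 and 41.7 TPM. DIN4, like MCCB, stayed above its white light libraries at 10 min, and IVD overlapped them.

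DIN10 ranged from 179.6 to 221 TPM in white light, from 427 to 486 TPM at 5 min, from 139 to 242 TPM at 10 min and from 276 to 396 TPM at 30 min. AKINBETA1 ranged from 35.0 to 46.0 TPM, then from 71.7 to 85.9, from 41.9 to 53.6 and from 55.5 to 67.6 TPM. Both genes overlapped white light only at 10 min. DIN2, the beta-glucosidase, was the exception at 5 min, with 8.65, 10.0 and 14.3 TPM against 8.40, 9.86 and 11.9 TPM in white light; at 30 min it measured 15.5, 15.1 and 14.0 TPM, above all of them.

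These levels were compared on the log2(TPM + 1) scale with limma, in a fit over every gene of the table, and a gene is called raised or lowered when its Benjamini-Hochberg adjusted p over all genes is under 0.05. At 5 min against white light 9 of the 10 were called raised and 0 lowered, and 2.58% of the 24589 genes tested were called raised. The log2 change was 1.94 ± 0.40 (SE) for ASN1, 1.47 ± 0.16 for MCCA, 1.42 ± 0.32 for SEN1 and 1.28 ± 0.25 for BCAT2, and for the 10 it ran from 0.10 (DIN2) to 1.94, with a median of 1.1 against 0.01 over all genes. The count fell to 4 without replicate 3 of the 5 min group and lay between 6 and 8 without any other single library, while the median stayed between 1.02 and 1.19. The shade markers did not pass the test at this time, with a median log2 change of 0.30 over the 4.

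At 10 min against white light only MCCB was called raised (0.44 ± 0.09, where 4.19% of all genes were called raised) and only SEN1 lowered (−1.33 ± 0.32, where 2.24% were called lowered), and the median of the 10 was −0.13. That median was −0.29 without 10 min replicate 2 and 0.06 without 10 min replicate 3. Leaving out single libraries gave from 0 to 3 calls. MCCB's call was lost without white light replicate 1 or 3 or any 10 min library, and SEN1's without white light replicate 1 or 3 or 10 min replicate 1 or 3. At 30 min against white light MCCA (0.93 ± 0.16), DIN10 (0.77 ± 0.19), AKINBETA1 (0.66 ± 0.12), MCCB (0.47 ± 0.09) and DIN4 (0.44 ± 0.11) were called raised, 5 of 10, where 3.80% of all genes were called raised. ASN1 had the largest change of the 10 at 30 min, 1.2 ± 0.40, without being called. The 30 min count fell to 0 without 30 min replicate 3, to 1 without white light replicate 1 or 3 and to 2 without 30 min replicate 1, with a median log2 change between 0.58 and 0.67 in each case, against 0.62 with all libraries. Fitted on the compared groups alone, 0 of the 10 were called at 10 min and 2 at 30 min, and median centring left 3 at 30 min. Shares of all genes called in these refits are not given, so whether a lower count is particular to the 10 was not tested. The 3 comparisons share the white light libraries.

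The steps between times were added after these values had been seen. From 5 to 10 min 8 of the 10 were lowered, all but DIN2 and MCCB, where 5.21% of all genes were lowered. For 9 of the 10, all but DIN2, the 10 min libraries lay below every 5 min library, as they did for 14.0% of all genes. The log2 change was −2.76 ± 0.32 for SEN1, −2.70 ± 0.40 for ASN1, −1.90 ± 0.25 for BCAT2 and −1.31 ± 0.19 for DIN10. The count stayed at 8 whichever library was left out. From 10 to 30 min 7 of the 10 were raised, all but DIN4, MCCB and AKINBETA1, where 4.43% of all genes were raised, with 1.96 ± 0.40 for ASN1 and 1.91 ± 0.32 for SEN1. For 9 of the 10, all but MCCB, the 30 min libraries lay above every 10 min library, as for 12.9% of all genes. The count of 7 was 3 without replicate 1 or 3 of the 10 min group or replicate 3 of the 30 min group, and 2 without 30 min replicate 1 or with these groups fitted alone. The steps share the 10 min libraries with each other. In a fit on the 18702 genes of mean TPM of at least 1, larger shares of genes were called, raised or lowered. Against white light they were 6.91% at 5 min, 11.0% at 10 min and 8.06% at 30 min. From 5 to 10 min 19.5% were called, and from 10 to 30 min 12.4%. Of the 10 this fit called 9 raised at 5 min, 6 raised at 30 min and 1 each way at 10 min. From 5 to 10 min it called 8 lowered, and from 10 to 30 min 7 raised.

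Markers of other tissues moved in the same libraries. The summed TPM of 8 root genes was 58.5 to 61.1 at 10 min, above every library of the other groups. It was 42.0 to 54.5 in white light, 40.2 to 47.7 at 5 min and 43.3 to 57.9 at 30 min. From 5 to 10 min 2 of these 8, EXPA7 and COBL9, rose, and none fell. The sum of 5 green shoot genes overlapped between all groups (36069 to 43803 TPM). Seed storage genes summed to between 4.18 and 436 TPM, the highest in replicate 2 of the 30 min group, with CRB listed at 0 in at least 1 library of the white light, 5 min and 10 min groups. The part of tissue make-up in the changes of the 10 genes was not tested.

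**Figure D2:**
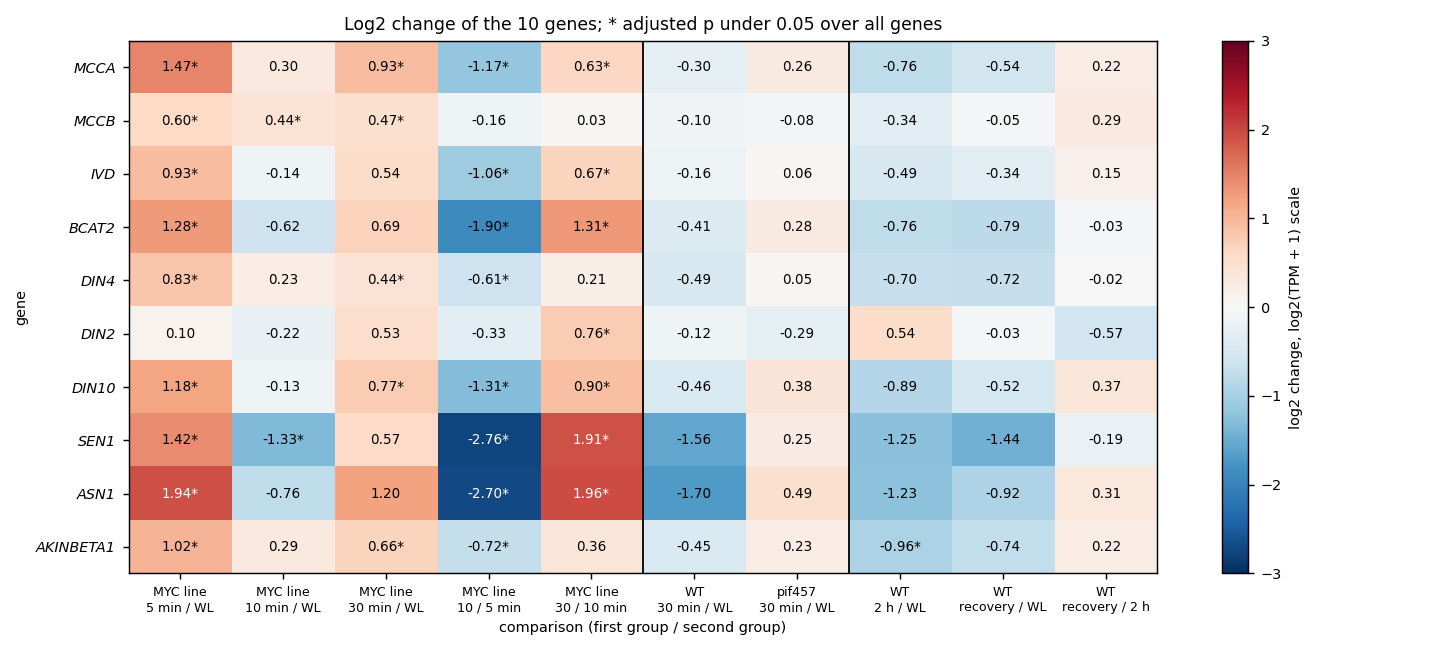
Log2 change of each of the 10 genes (rows) in 10 comparisons (columns), on the log2(TPM + 1) scale from the limma fits; asterisks mark adjusted p under 0.05 over all genes of the table, and vertical lines separate the 3 tables, which were normalized separately. In the PIF7-MYC line the value at 10 min is below those at 5 and 30 min for each of the 10, by little for MCCB (0.60, 0.44 and 0.47 in order of time), and 6 of the 10 values at 10 min are below 0, while 9 of the 10 wild-type values at 2 h are below 0.

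Genes of the same pathways outside the 10 were tested in the same fits. The lists they come from were also chosen with earlier results of these data known. Their counts and p-values are therefore no independent evidence. Of 17 other genes of branched-chain amino acid breakdown, 5 rose and none fell at 5 min, with a list median of 0.12. The E2 subunit of the keto acid dehydrogenase complex (BCE2, also DIN3) went from 17.3 ± 0.897 TPM to 31.1 ± 1.65 TPM (n = 3; log2 change 0.81, limma adjusted p = 0.00226). ALDH6B2, a methylmalonate semialdehyde dehydrogenase of valine breakdown, went from 34.8 ± 2.74 to 61.2 ± 3.92 TPM (adjusted p = 0.00286). E1A1, an E1 alpha subunit, went from 27.1 ± 1.42 to 53.9 ± 1.69 TPM (adjusted p = 0.00434), and ETFQO, which passes electrons from IVD's reaction towards ubiquinone, from 15.4 ± 1.46 to 25.0 ± 2.31 TPM (adjusted p = 0.0138). The fifth was BCDH_BETA1, the other E1 beta gene beside DIN4, from 11.0 ± 1.55 to 17.5 ± 1.79 TPM (adjusted p = 0.0222). The genes that rose thus encode 3 kinds of subunit of the dehydrogenase complex, a valine enzyme and the electron carrier.

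From 5 to 10 min 4 of the 17 fell and 1 rose. E1A1 fell to 23.9 ± 5.49 TPM (log2 change −1.17, limma adjusted p = 0.00107) and BCE2 to 21.1 ± 1.35 TPM (−0.54, adjusted p = 0.00292). The gene that rose was E1A2, the other E1 alpha gene, from 2.15 ± 0.811 to 6.26 ± 0.525 TPM (1.24, adjusted p = 0.0049). E1A1 and E1A2 thus moved in opposite directions at a time when E1A1 was the more abundant; how reads were shared between these related genes is not recorded. From 10 to 30 min E1A1 rose (0.73, adjusted p = 0.00717) and E1A2 fell (−0.96, adjusted p = 0.0194).

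Of 13 genes that break down other amino acids, 5 rose at 5 min and none fell, with a list median of 0.47. Glutamate dehydrogenases GDH1 and GDH2 went from 29.9 ± 4.19 to 56.9 ± 4.04 TPM (limma adjusted p = 0.00434) and from 86.2 ± 12.5 to 187 ± 17.2 TPM (adjusted p = 0.00652). POP2, a GABA transaminase, went from 85.8 ± 6.19 to 141 ± 3.04 TPM (adjusted p = 0.00942), and ProDH1, the proline dehydrogenase, from 79.1 ± 14.9 to 173 ± 22.6 TPM (adjusted p = 0.0134). From 5 to 10 min 6 of the 13 fell, among them POP2 to 80.0 ± 12.7 TPM and THA1, a threonine aldolase, from 21.7 ± 5.48 to 2.94 ± 2.31 TPM (adjusted p = 0.00391). At 30 min against white light 4 of the 13 were raised, including ProDH1 at 161 ± 32.9 TPM (adjusted p = 0.0152) and the methionine gamma-lyase gene MGL at 29.3 ± 2.43 against 18.5 ± 3.82 TPM (adjusted p = 0.0257).

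Of 16 other dark-induced and starvation genes, 10 rose and 1 fell at 5 min (list median 0.77). The dormancy-associated genes DRM2 and DRM1 are in this list; DRM2 went from 501 ± 43.2 to 1011 ± 36.0 TPM (limma adjusted p = 0.0039). BT2, a BTB-domain protein gene known to be repressed by sugar, went from 160 ± 15.2 to 370 ± 14.3 TPM (adjusted p = 0.00441), UGE1, a UDP-glucose epimerase, from 42.8 ± 1.6 to 74.2 ± 4.83 TPM (adjusted p = 0.00517) and the trehalose phosphate synthase-like gene TPS9 from 23.0 ± 3.46 to 44.0 ± 3.30 TPM (adjusted p = 0.00621). The gene that fell was TPS5, of the same family as TPS9, from 13.1 ± 0.857 to 8.72 ± 0.53 TPM (adjusted p = 0.0131); it is named because it was the exception, after its values had been seen. From 5 to 10 min 10 of the 16 fell, and at 30 min against white light 7 were raised and 1 lowered.

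The lists around AKINBETA1, ASN1 and DIN10 gave fewer calls at 5 min. Of 6 other SnRK1 subunit genes only KINGAMMA rose at 5 min, from 47.1 ± 2.86 to 79.2 ± 5.90 TPM (limma adjusted p = 0.00633), and the catalytic subunit genes did not pass the test. Of 10 other genes of asparagine and glutamine synthesis, ASN2, the asparagine synthetase known to be favoured by light, rose from 186 ± 19.9 to 264 ± 15.8 TPM (adjusted p = 0.0255), and from 5 to 10 min 5 of the 10 rose, where 9.85% of all genes were called raised, glutamate synthase GLT1 among them (100.0 ± 9.06 to 132 ± 14.5 TPM, adjusted p = 0.0128), while ASN1 was lowered. Of 8 other genes of the raffinose family none was called at 5 min. From 5 to 10 min 2 of the 8 rose and 1 fell, with a list median of 0.14. The gene that fell was SIP2, named for seed imbibition, from 271 ± 18.5 to 129 ± 27.9 TPM (adjusted p = 0.00654). Among 9 group C and S1 bZIP factors, which can act in the starvation response, 1 rose at 5 min (bZIP9, 48.9 ± 2.84 to 73.8 ± 5.23 TPM, adjusted p = 0.0315), and 3 rose and 3 fell from 5 to 10 min. ATG8F was the only one of 9 ATG8 autophagy genes that rose at 5 min (108 ± 18.6 to 151 ± 8.07 TPM, adjusted p = 0.0444), and SAG21 the only one of 11 genes of leaf senescence and chlorophyll loss (109 ± 28.1 to 265 ± 59.5 TPM, adjusted p = 0.00693).

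**Figure D3:**
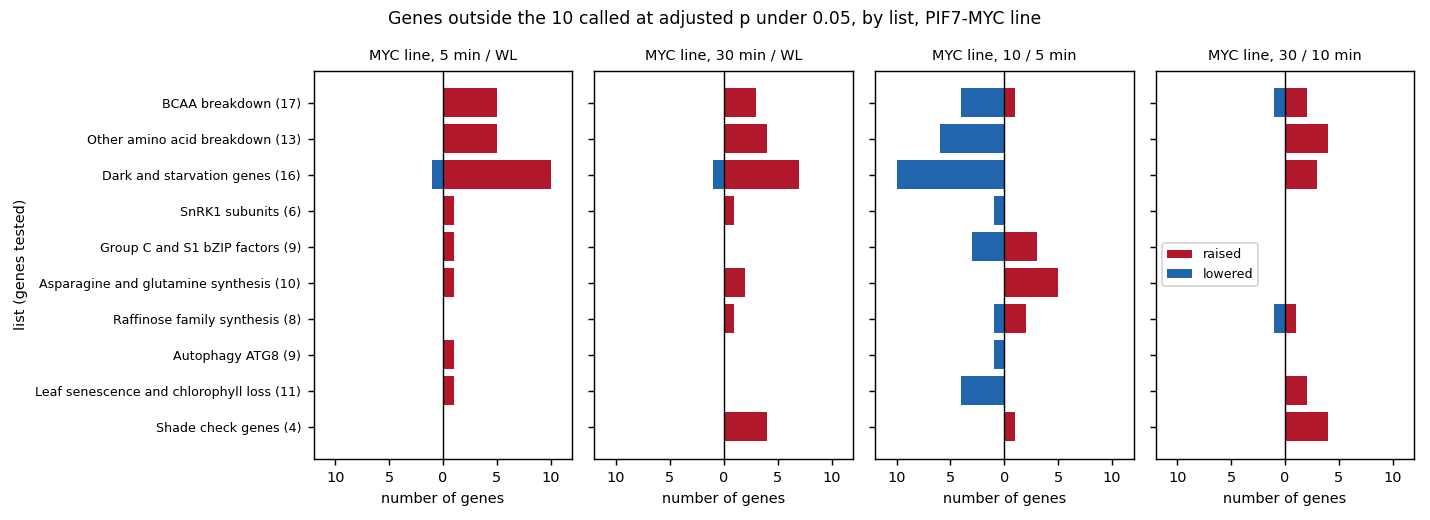
Number of genes outside the 10 called raised (right of 0) or lowered (left of 0) in 10 lists, in 4 comparisons of the PIF7-MYC line; the number of genes tested is in brackets. The 3 upper lists have 20 genes raised at 5 min and 20 lowered from 5 to 10 min, and the shade genes were raised at 30 min and not at 5 min.

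In wild type after 2 h of low R:FR, 9 of the 10 genes had log2 changes below 0 and that of AKINBETA1 was called lowered. AKINBETA1 measured 87.5, 58.6 and 57.6 TPM in white light and 32.7, 35.4 and 33.4 TPM at 2 h, with no overlap (log2 change −0.96 ± 0.16, where 0.734% of the 25331 genes tested were called lowered). The call was lost when any 1 of the 2 h libraries was left out, and kept when any 1 of the white light libraries was. The median of the 10 was −0.76 against −0.01 over all genes. SEN1 measured 256, 94.1 and 187 TPM in white light and 81.9, 59.5 and 67.1 TPM at 2 h, and DIN10 measured 261, 117 and 165 TPM and then 88.7, 81.2 and 109 TPM. With IVD and DIN4, these genes and AKINBETA1 make 5 of the 10 with all 2 h libraries below all white light libraries, as were 8.27% of all genes. The summed level of the 5 green shoot genes was 46919 to 48623 TPM in white light, 38721 to 45835 TPM at 2 h, below white light, and 40879 to 45880 TPM after recovery, with 0 of the 5 called at 2 h. That of the 8 root genes overlapped between these groups (63.2 to 77.5 TPM), and the part of tissue make-up was not tested.

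ASN1 and BCAT2 overlapped between white light and 2 h. ASN1 measured 70.6, 10.7 and 29.5 TPM in white light and 19.0, 4.81 and 16.1 TPM at 2 h, and BCAT2 measured 40.2, 7.42 and 18.0 TPM and then 11.0, 9.71 and 9.56 TPM. Replicate 1 of white light was the highest of its group for 8 of the 10 genes and replicate 2 the lowest for 8. DIN2 again went its own way, with 28.6, 32.6 and 37.7 TPM at 2 h, above its 20.8, 22.9 and 23.0 TPM in white light (log2 change 0.54 ± 0.14, not called), a separation that 8.53% of all genes showed.

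After 2 h back in white light none of the 10 was called against white light or against 2 h, where 0.711% and 1.11% of all genes were called; 3 and 1 of the 10 had an unadjusted p under 0.05 in limma, as did 13% and 8.75% of all genes. DIN2 returned to 23.3, 22.4 and 19.7 TPM, overlapping white light and below all 2 h libraries, as were 6.52% of all genes. AKINBETA1, at 43.6, 39.3 and 35.8 TPM, was above all 2 h libraries, as were 6.91% of all genes, and below all white light ones, which IVD and DIN4 were too and 7.54% of all genes were. Recovery replicate 3 was the highest of its group for 8 genes, for example ASN1 at 35.3 against 10.5 and 8.01 TPM and BCAT2 at 27.4 against 5.09 and 6.38 TPM. The median log2 change from 2 h to recovery was 0.18 with it and −0.18 without it. With it and white light replicate 1 left out together the call of AKINBETA1 at 2 h was kept and the recovery comparisons gave 0 calls, an alternative added after seeing the data.

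**Figure D4:**
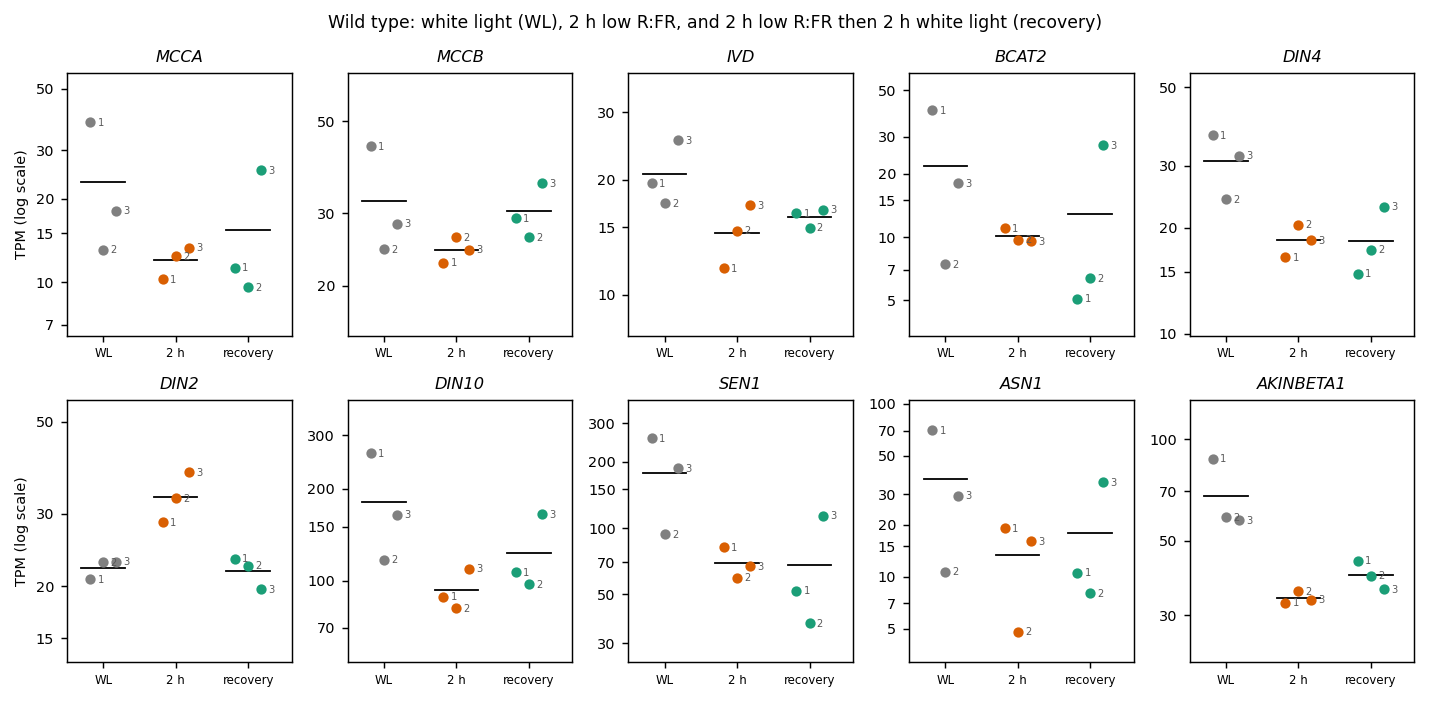
TPM of each of the 10 genes (log scale) in every wild-type library of the white light, 2 h and recovery groups; points are libraries with their replicate number, lines the group means, n = 3. White light replicates 1 and 2 are far apart for ASN1 (70.6 and 10.7 TPM) and BCAT2, and AKINBETA1 and DIN2 have 2 h points clear of white light in opposite directions.

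At 2 h few pathway genes outside the 10 passed the test. None of the 17 branched-chain and none of the 13 other amino acid breakdown genes was called, with list medians of −0.19 and −0.30. Of the 16 dark and starvation genes EXL1 rose from 9.73 ± 3.19 to 38.4 ± 2.97 TPM (limma adjusted p = 0.00235) and was back at 4.79 ± 0.767 TPM after recovery. ATG8E fell from 77.8 ± 22.7 to 31.5 ± 4.36 TPM (adjusted p = 0.0113) and bZIP9 from 87.8 ± 15.3 to 35.7 ± 5.83 TPM (adjusted p = 0.00538). From 2 h to recovery ASN2 rose from 87.2 ± 20.2 to 243 ± 27.3 TPM (adjusted p = 0.00312) and GLT1 from 84.5 ± 8.57 to 127 ± 10.6 TPM (adjusted p = 0.0356).

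The comparison of wild type with pif457 asks whether a response needs the PIF factors. None of the 10 was called in wild type at 30 min, in pif457 at 30 min, between genotypes in white light or at 30 min, or for the difference of the responses. Over all genes 0.119%, 0.0123%, 0.0287%, 5.25% and 0.041% were called, and of the 10, 3, 0, 1, 0 and 2 had an unadjusted p under 0.05 in limma, as did 8.73%, 9.4%, 4.24%, 18.1% and 11.6% of all genes. When genes of a mean under 1 TPM were left out of the fit, 2, 0, 2, 1 and 3 of the 10 were called, all of them ASN1, SEN1 or DIN10, where 3.3%, 3.16%, 1.24%, 9.23% and 4.29% of the 18772 genes then tested were called. Limma's prior degrees of freedom then went from 4.02 to 577, at which a gene's own spread hardly enters its test.

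The white light libraries of the wild type were far apart: ASN1 measured 14.8 and 73.3 TPM, SEN1 28.3 and 118 TPM and DIN10 141 and 284 TPM, and replicate 2 was the higher for all 10. At 30 min ASN1 in wild type measured 7.72 and 11.7 TPM and SEN1 18.7 and 19.2 TPM, below both white light libraries, as did BCAT2 and DIN4; 12.4% of all genes lay below in this way. The median log2 change of the 10 was −0.43, and −0.05 without white light replicate 2. In white light 7 of the 10 had both pif457 libraries below both wild-type libraries, as did 14.6% of all genes. The median log2 change of pif457 against wild type there was −0.45, and −0.12 without wild-type white light replicate 2. For ASN1 that change was −1.91 ± 0.65 (SE) in white light and 0.28 ± 0.65 at 30 min, neither called. In pif457 ASN1 measured 6.93 and 9.39 TPM in white light and 8.29 and 16.4 TPM at 30 min, and SEN1 25.3 and 27.8 TPM and then 25.2 and 39.9 TPM, with overlap in each case. In pif457 at 30 min replicate 1, the library with 23.1% of TPM on rRNA and organellar genes, was the lower for all 10 genes. Without replicate 2 of that group DIN2 was called lowered in pif457 at 30 min, and DIN2 and MCCB lower in pif457 than in wild type at 30 min.

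The response of ASN1 in pif457 minus that in wild type was 2.19 ± 0.91 (SE) and that of SEN1 1.81 ± 0.77, on the log2 scale, and neither was called. Without wild-type white light replicate 2 they were 1.07 for ASN1 and 0.8 for SEN1, and the median over the 10 went from 0.61 to 0.30. Across all genes the median log2 change was −0.14 for pif457 at 30 min, −0.16 between genotypes at 30 min and −0.20 for the difference of responses, so the medians of the 10 for these, 0.24, 0.16 and 0.61, stand further above all genes than above 0. Without pif457 30 min replicate 2 the first 2 of these medians of the 10 were −0.09 and −0.19, and without replicate 1 they were 0.50 and 0.45. With all libraries, but rRNA and organellar genes removed and TPM rescaled, the medians of the 10 were 0.4, 0.26 and 0.77. For genes of mean TPM of at least 5, the main log2 change minus the rescaled one had medians of −0.15, −0.1 and −0.15. Of the 8 root markers 5 were lower in pif457 than in wild type at 30 min (summed level 31.4 and 48.4 against 64.7 and 56.3 TPM), and their part was not tested.

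**Figure D5:**
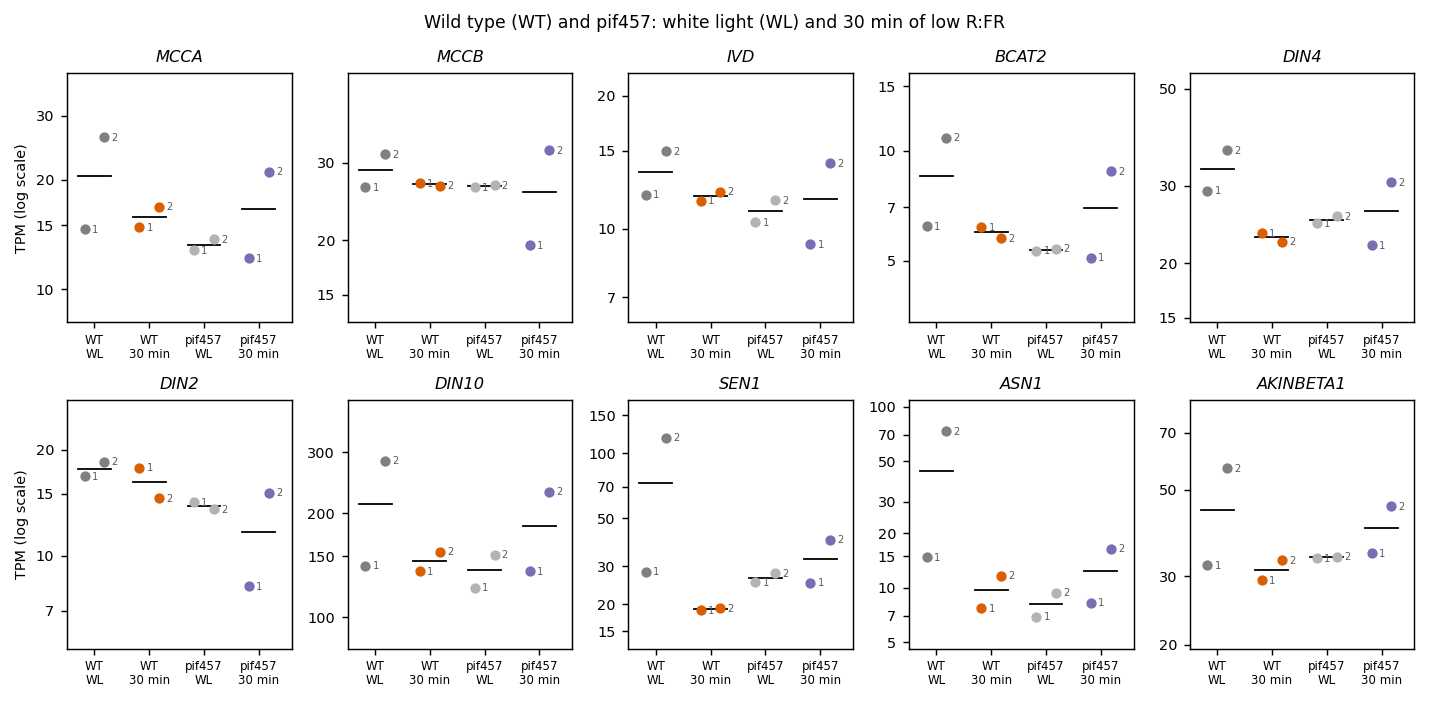
TPM of each of the 10 genes (log scale) in every library of both genotypes, from white light and the 30 min exposure; points are libraries with their replicate number, lines the group means, n = 2. Wild-type white light replicate 2 is the highest of all 8 libraries for ASN1 (73.3 TPM) and SEN1 (118 TPM), and pif457 replicates at 30 min differ for every gene.

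Within groups the genes tended to stand high or low in the same libraries. After group means were removed, the correlation of a gene with the mean of the other 9 was 0.86 to 0.98 for MCCA, BCAT2, DIN10, SEN1 and ASN1 over the 9 libraries of the first table, 0.80 to 0.96 over the 12 of the second and 0.90 to 0.99 over the 8 of the third. These ranges are for those 5 genes. In the second table DIN4 (0.44) and MCCB (0.49) were lower, and DIN2 stood apart in each, at −0.46, 0.30 and 0.61, as IVD (0.26) and AKINBETA1 (0.34) did in the first table. Values of 1 library share its plants, its depth and its TPM scaling, so these correlations are a description.

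Other genes had profiles close to that of the 10. Over the 29 libraries, standardized within each table, 13546 genes with a mean of at least 5 TPM in every table were compared with the mean profile of the 10. The closest 15 had Pearson r from 0.902 to 0.939: BXL1 (a beta-xylosidase), UGE1, ProDH1 (listed as ERD5), PLPB, AT1G56220, AT2G32150, ACX4 (an acyl-CoA oxidase), TPS8, AT4G36850, STP1 (a sugar transporter), E1A1, AT1G66760, AT3G15450, ACBP3 (an acyl-CoA-binding protein) and UGE3. In the PIF7-MYC line BXL1 had a mean of 123 TPM in white light, then means of 251, 107 and 171 TPM at 5, 10 and 30 min, and AT3G15450 went from 271 to 718, 282 and 556 TPM. Each of the 10 was compared with the mean of the other 9 in the same way: MCCA (0.954) and DIN10 (0.952) were closest to it and DIN2 (0.202) furthest. All points share libraries, so no p is given.

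PIF7 binding was read from 3 deposited lists of binding events, called by the authors on pooled anti-MYC chromatin samples of the PIF7-MYC line. Per the labels, the 30 min list and the list of 998 events were called against white light. The list of 1052 events was called against wild-type IgG. A site bound alike in both lights need not be in a list called against white light. In the list for 30 min of low R:FR, 1 of the 10 genes, ASN1, had an event within 3 kb, against 8.67% of 27432 protein-coding genes. The event lies at position 17442272 of chromosome 3 (TAIR10), between genes, within 1 kb of ASN1, with AT3G47341 as the nearest gene. Its strength of 97.5 ranks 907 of 1408 events, below the list's median of 114, and the authors' fold over control is 6.3 and −log10 q 7.27. The short sequence that the caller assigned to it is printed here because it is the only one that a file ties to one of the 10 genes:
ASN1 event: ACACGT
All of its letters are in capitals because all are the match. It shares CACGT with the G-box CACGTG, and the bases beside it were not read, so whether the G-box is complete at the site is not known. The G-box was in the assigned sequence of 69.9% of the events in that list. In the other lists, of 1052 and 998 events, none of the 10 genes had an event within 3 kb, against 6.06% and 6.40% of protein-coding genes; the labels of the last list cross its sample numbers between white light and low R:FR. In the 30 min list 17 of the 125 list genes had an event within 3 kb. These 17 include all 4 shade genes. From the pathway lists they include MGL, DRM1, TPS10, TPS11, BT2, KINBETA3, bZIP44, GLU1, GolS2, ATG8G and SGR1. The tissue markers PSBO1 and CRB are also among them. No event near a gene says whether PIF7 acts on it.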

How the data were processed

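Total RNA of Arabidopsis seedlings was sequenced in 29 libraries, and the authors deposited TPM for 33602 gene models in 3 tables; STAR 2.6.0c, RSEM 1.3.0, Bowtie2 2.1.0 and the TAIR10 build are listed in the submitters' processing notes, with no roles. TPM have the same sum in every library and hold no depth, so no interval for counting error is given. PIF7 binding events come from the deposited event lists, which were called with GEM on pooled samples, per the labels. The authors' event strength is a signal in reads, their fold is a ratio over control, and their deposited −log10 q is copied as given. Events were set against genes with neighbours taken from RefSeq's TAIR10.1 table, of which no coordinate is printed.

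Each table was fitted alone on log2(TPM + 1) with limma 3.58.1 (R 4.3.3, trend, all libraries of the table, genes not at 0 throughout), with Benjamini-Hochberg adjustment over all of its genes and a threshold of 0.05. Fold changes on this scale understate those of genes with low TPM. The fit was also run on simulated data with independent noise for each gene. Such data lack deviations that genes of 1 library share, so nothing is concluded from that run. The 10 genes and the 14 lists of 125 genes were chosen with earlier results of these data known, which also holds for the alternatives, so list counts are no independent evidence. From each list and comparison up to 4 called genes with the smallest adjusted p are named, and the 15 most alike profiles; further names were chosen after their values were seen. Alternatives were other pseudocounts (0.1 and 5), centring and scaling, filters, a 2-fold minimum, the compared groups alone, a replicate block, each library left out, and event distances of 1 and 5 kb. Numbers shared between groups were not taken as pairs, except in the replicate block.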

Additional observations from a re-analysis of the deposited data

Results flagged for a closer look

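For 4 of the 10 genes every library at 30 min of low R:FR was above every white light library in the PIF7-MYC line and below every white light library in wild type, a pair of positions held by 3.26% of the 23796 genes above 0 in at least 1 library of each table. The log2 change was 0.69 and −0.41 for BCAT2, 0.44 and −0.49 for DIN4, 0.57 and −1.56 for SEN1, and 1.2 and −1.7 for ASN1, in that order. The difference between the lines was not tested, since the tables were normalized separately. Wild-type white light replicate 2 had the higher level for all 4 genes, and the wild-type groups hold 2 libraries each. Without it the wild-type changes were −0.05 for BCAT2, −0.34 for DIN4, −0.55 for SEN1 and −0.58 for ASN1.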

How the results depend on the processing

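No called value changed sign under the alternatives run. Of 1650 alternative values for single genes, 1551 kept their side of the threshold. Among these, values called in neither fit were counted whatever their sign. The call was lost in 84 (64 of them with a library left out) and gained in 15. A 2-fold minimum left 0 of the 10 called at 2 h, 1 at 10 min, 0 at 30 min and 3 from 10 to 30 min, and it took the pathway lists from 26 to 7 at 5 min, from 7 to 0 at 10 min, from 19 to 3 at 30 min, from 41 to 7 from 5 to 10 min, from 14 to 2 from 10 to 30 min and from 4 to 2 for recovery against white light. The 2-fold minimum also removed the 5 min calls of DIN4 (0.83), IVD (0.93) and MCCB (0.60). From 5 to 10 min it removed those of DIN4 (−0.61) and AKINBETA1 (−0.72). Fitted on the compared groups alone, 0 were called at 10 min, 2 at 30 min and 2 from 10 to 30 min. Median centring gave 3 at 30 min. Genes of mean TPM of at least 1 gave 1 for recovery against white light, and 2, 2, 1 and 3 for wild type at 30 min, pif457 against wild type in white light, the same at 30 min, and the difference of responses. Events at or above the median strength left 0 of the 10 genes near one. Apart from the fit on genes of mean TPM of at least 1, no share of all genes called is set beside the counts from alternatives. A lower count of the 10 may thus go with fewer calls over all genes. Except where named here, the cause was not tested.

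With each library left out in turn the number of the 10 called lay between 0 and 1 at 2 h, 4 and 8 at 5 min, 0 and 3 at 10 min, 0 and 5 at 30 min, 8 and 8 from 5 to 10 min, 2 and 7 from 10 to 30 min, 0 and 1 in pif457, 0 and 2 between genotypes at 30 min, and 0 and 0 elsewhere. A group left with 1 library was assumed to vary like the others. The replicate block gave 8 of the 10 at 5 min, 1 at 10 min, 3 at 30 min, 8 from 5 to 10 min, 5 from 10 to 30 min and 1 at 2 h, and 0 elsewhere. Deviations of libraries of the same number had median correlations of −0.00875, −0.0579 and −0.0166 in the 3 tables. Single pairs ranged from −0.102 to 0.0613, from −0.288 to 0.331 and from −0.26 to 0.366. A median over all pairs cannot show whether some groups were handled together by number. Promoter motifs were not run, as no promoter sequence was used here. TPM keep no depth, so what depth limits is unknown; the groups of 2 and 3 libraries limit the precision.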
